A study of Homo sapiens with 12 samples.

Results

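The genes described here encode vasoactive peptides of the endothelium, an enzyme that matures one of them, a peptide receptor and its partner, and the endothelial nitric oxide synthase. They were 7 genes chosen by symbol (ADM, APLN, EDN1, ECE1, NOS3, CALCRL and RAMP2) out of 51141 in the count table. All 7 were found, and 6 passed the filter on low counts that left 14447 genes for testing. RAMP2 did not pass it.

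The samples were EA.Hy926 cells, an immortal human line that is a fusion of umbilical vein endothelium and lung carcinoma cells, so every group carries that hybrid genome. Messenger RNA was sequenced in 12 libraries, 3 in each of 4 groups. The TEPA+hypoxia group received 50 µM TEPA, a chelator of copper, for 16 h and was then kept for 8 h in 1% oxygen. The hypoxia group had the same 8 h in 1% oxygen without TEPA. The TEPA group had the same chelator treatment and a last 8 h in normal oxygen, and the control group had neither treatment. The series asks how copper bears on transcription driven by HIF-1, the factor that turns on genes when oxygen is low. The labels do not say whether libraries of a group came from separate cultures, so each p-value reflects no more than the variation among the libraries at hand, which may be technical.

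Blood vessels set their width by signals from the endothelium to the smooth muscle beneath it. Adrenomedullin and nitric oxide relax that muscle, endothelin-1 contracts it, and apelin acts on the endothelium and heart, mostly as a dilator. Adrenomedullin binds the receptor encoded by CALCRL only where a RAMP protein accompanies it, endothelin-1 is cut from its precursor by ECE1, and ADM is a textbook target of HIF-1.

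Total counts ran from 13406858 to 24778944 per library. Hypoxia 2 and hypoxia 3 stood apart from the rest. On the first principal component, which held 80.9% of the variance, they scored 110.0 and 92.2. Hypoxia 1 scored 10.6, and the other 9 libraries lay between -47.0 and -7.12. The TMM method, which scales counts to library size, gave hypoxia 2 and 3 factors of 0.772 and 0.838. The other libraries had 1.03 to 1.08, so scaling raised the values of hypoxia 2 and 3 relative to them. Values from a fit without hypoxia 2 and 3 are therefore given beside the results of single genes that use the hypoxia group. In that fit hypoxia 1 alone stands for hypoxia and is assumed to vary like the other groups. Of 10 endothelial markers, 8 averaged at least 1 CPM (counts scaled to the library size by the TMM method), while the defining markers CLDN5 and EMCN were at 0 in every library. Their summed level was 2047 to 2145 CPM in TEPA+hypoxia, 1530 to 1929 CPM in hypoxia, 2197 to 2292 CPM in TEPA and 2106 to 2257 CPM in control. Of 6 epithelial markers, KRT8 and KRT18 were expressed and CDH1 was at 0; the sum was 1960 to 2349 CPM in TEPA+hypoxia, 2796 to 6571 CPM in hypoxia, 2339 to 2437 CPM in TEPA and 2103 to 2522 CPM in control. Fibroblast and mural markers summed to 90.6 to 107 CPM in TEPA+hypoxia, 45.0 to 82.4 CPM in hypoxia, 85.3 to 91.6 CPM in TEPA and 82.8 to 86.6 CPM in control, mostly from RGS5, and 0 of 4 leukocyte markers reached 1 CPM. The part of these shifts in the results was not tested, and in bulk RNA fewer cells of a type and less RNA per cell cannot be told apart. A marker at 0 was not read as absent, because HK1 (0 counts in total) and CANX (4), which nearly every cell uses, were also at or near 0.

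Promoter sequences are shown for the peptide genes and NOS3, because HIF binds DNA at a short core, ACGTG or GCGTG, and ADM, APLN and NOS3 were the members called higher in hypoxia. RefSeq starts (GRCh38.p14) gave 12 windows of 250 bases before the start for 6 members, RAMP2 having none in the table used. Both strands were searched and overlapping matches counted separately. The core was present in 43.2% of all 35116 windows of that length, and 19.4% held at least 2 matches, so a match is common and describes letters only. Capitals mark the core as read on the gene's strand, where CACGT and CACGC are its reverse complements, and positions count back from the start at -1. Stretches inside annotated exons are left out, except that the ADM window lies wholly in an exon of another transcript and 25 bases around its 1 match are shown.
APLN, chrX:129654957-129655206, minus strand, 250 bases with matches from -167 to -163 and from -142 to -138: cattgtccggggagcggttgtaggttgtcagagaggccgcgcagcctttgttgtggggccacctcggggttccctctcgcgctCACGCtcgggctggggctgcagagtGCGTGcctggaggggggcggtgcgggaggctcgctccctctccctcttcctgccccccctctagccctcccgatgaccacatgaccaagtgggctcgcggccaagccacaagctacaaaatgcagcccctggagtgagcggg
NOS3, chr7:150993532-150993752, plus strand, bases -250 to -30 with a match from -168 to -164: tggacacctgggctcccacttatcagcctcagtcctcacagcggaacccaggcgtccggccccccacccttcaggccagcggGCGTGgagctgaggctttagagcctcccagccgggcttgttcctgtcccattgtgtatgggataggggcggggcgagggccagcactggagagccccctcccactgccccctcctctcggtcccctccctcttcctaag
EDN1, chr6:12290111-12290360, plus strand, 250 bases with a match from -123 to -119: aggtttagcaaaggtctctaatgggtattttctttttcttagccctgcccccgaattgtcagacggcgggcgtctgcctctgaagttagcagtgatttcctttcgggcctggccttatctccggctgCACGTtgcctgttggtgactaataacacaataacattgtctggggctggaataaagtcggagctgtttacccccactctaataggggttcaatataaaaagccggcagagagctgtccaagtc
ADM, chr11:10304962-10304986, plus strand, with a match from -101 to -97: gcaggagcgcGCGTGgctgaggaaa
CALCRL had 0 matches in its window, and the 4 ECE1 windows had 0, 0, 1 and 2. The 2 further EDN1 windows, farther upstream, had 0 and 3 matches. A further NOS3 window, which overlaps the one shown, held the same 1 match. APLN was the only one of the 4 genes shown with 2 matches in the stretch printed, which depends on the windows chosen. EDN1 and ECE1 carried matches although their RNA did not pass the test in hypoxia. A relation between matches and calls was not tested.

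Levels between genes were compared per kilobase of the longest annotated transcript, averaged over all 12 libraries. ECE1 was highest at 252 CPM per kb, followed by EDN1 at 163 and NOS3 at 102 CPM per kb. ADM stood at 35.8 and APLN at 32.9 CPM per kb, and CALCRL at 0.235 CPM per kb. The 12 libraries of ECE1 (232 to 273 CPM per kb) lay above all those of EDN1 (103 to 183). EDN1 and NOS3 (83.7 to 119) overlapped through 1 hypoxia library of EDN1, and ADM (21.9 to 63.2) and APLN (22.2 to 47.2) overlapped. The enzymes and endothelin-1 were thus abundant, the dilator peptides intermediate, and the adrenomedullin receptor the lowest. In CPM, CALCRL ran from 0.431 to 1.75, above the floor of 3 counts (0.118 to 0.267 CPM, by library) in every library.

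**Figure D1:**
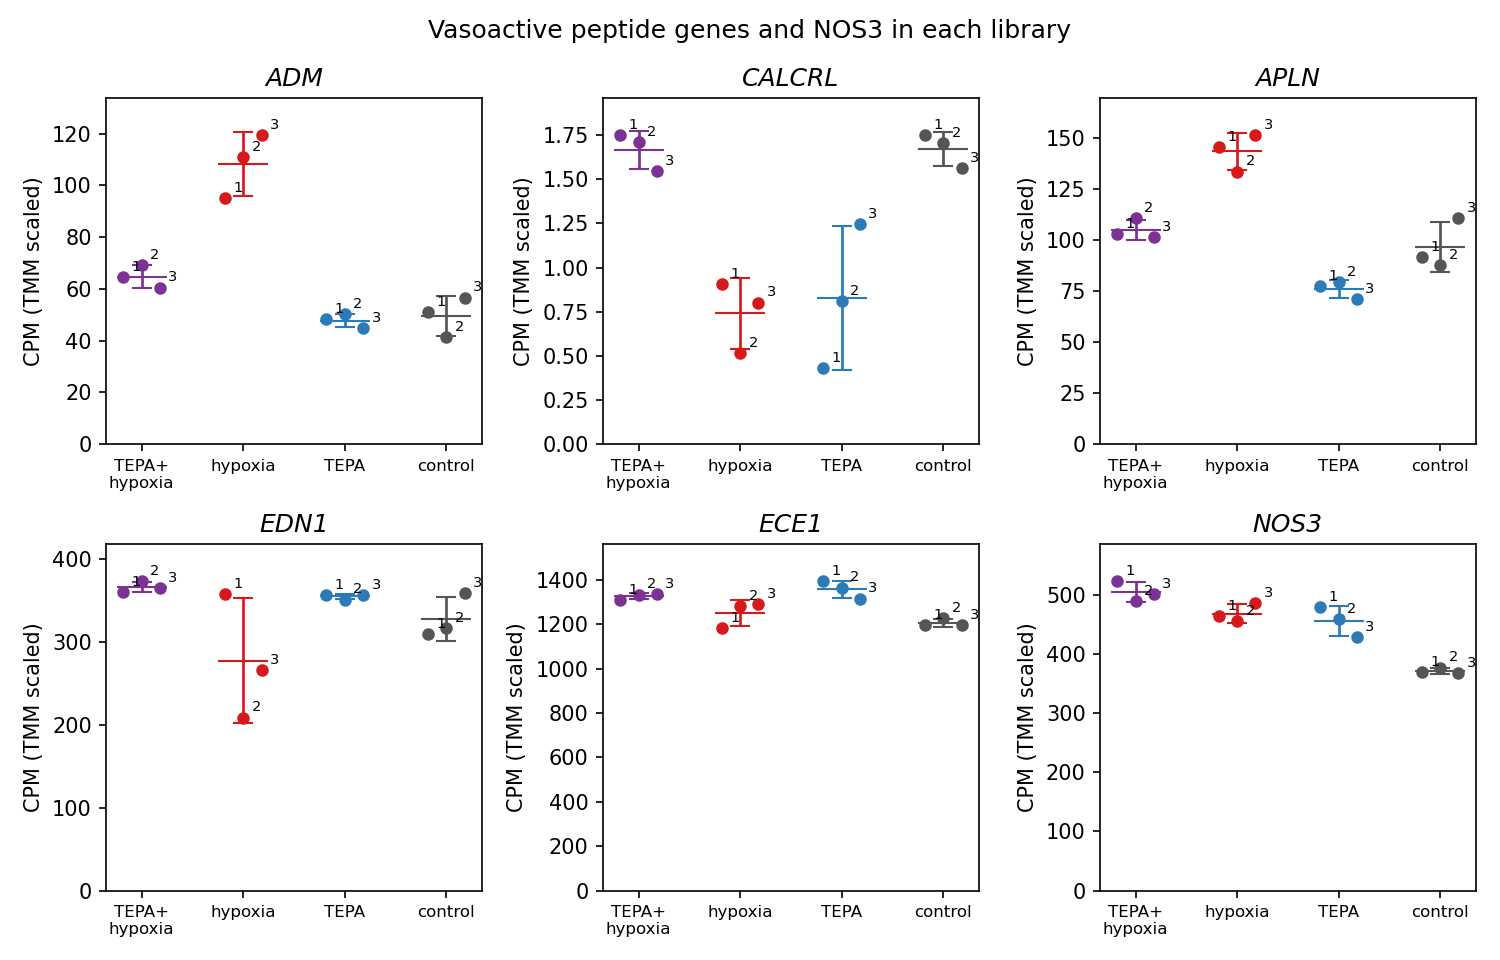
Points are the CPM (TMM scaled, linear axis from 0) of each library, numbered by replicate, and bars are the mean and SD of the 3 libraries of a group, for the 6 members that were tested. ADM and APLN stand highest in hypoxia, NOS3 lowest in control, and CALCRL lies between 1.54 and 1.75 CPM in TEPA+hypoxia and control and below that in hypoxia and TEPA.

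Hypoxia against control asks what low oxygen does in cells with their normal copper. In the fit of all 12 libraries the 2 dilator peptide genes and the synthase gene rose, and the receptor gene fell. Calls were made at a Benjamini-Hochberg adjusted p under 0.05 in edgeR's quasi-likelihood test over all 14447 genes. ADM, APLN and NOS3 were called higher and CALCRL lower. The same 4 were without overlap between libraries, as were 27.4% (higher) and 28.2% (lower) of all genes. In the same test 57.2% of all genes were called, 29.4% higher and 27.8% lower, so 4 of 6 members is a share near the background and says nothing particular of these genes. The fit without hypoxia 2 and 3 called 0.513% of all genes, and ADM was the 1 member among them. An edgeR fit of only the 6 libraries compared called 0 genes (smallest adjusted p = 0.0582), with 6939 genes at an unadjusted p under 0.05. After a correction for the GC content and length of transcripts, ADM and APLN were called higher and 0 members lower. The calls of NOS3 and CALCRL were lost there, beside 2871 of 12587 genes called higher and 2962 lower.

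ADM (chr11:10304680-10307397, plus strand) encodes the precursor of adrenomedullin. Its level was 94.98, 111 and 119 CPM in hypoxia 1 to 3, against 51.0, 41.3 and 56.7 CPM in control 1 to 3. Every hypoxia library was above every control library, including hypoxia 1, which was the lowest of its group after TMM scaling. Unscaled, hypoxia 2 held the lower share, with 1508 counts of 17648057 against 1468 of 15036668 in hypoxia 1. The log2 fold change was 1.13 ± 0.13 (SE, 95% interval 0.84 to 1.41, adjusted p = 0.00507, n = 3 libraries each), a 2.18-fold rise. It was 0.93 ± 0.14 (adjusted p = 0.0166) without hypoxia 2 and 3, and 0.35 ± 0.13 (adjusted p = 0.0442) after a correction for the GC content and length of transcripts. ADM transcripts hold 58.5% GC, against a median of 48.4% over the genes tested.

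In the fit of all 12 libraries the ADM response was smaller with the chelator, a direction that turned after the GC and length correction. With TEPA, ADM was at 64.5, 69.2 and 60.5 CPM in TEPA+hypoxia, against 48.3, 50.2 and 44.9 CPM in TEPA. These groups did not overlap either, but the log2 difference of 0.44 ± 0.13 (0.15 to 0.72) did not pass the test over all genes (adjusted p = 0.349). In an edgeR fit of only these groups the difference was called (0.45, adjusted p = 0.0242). It passed without hypoxia 1 (0.44, adjusted p = 0.0479) and without hypoxia 2 and 3 (0.45, adjusted p = 0.0467), libraries that enter this comparison only through the spread shared by all groups. TEPA+hypoxia was below hypoxia in all libraries, with a log2 fold change of -0.74 ± 0.13 (adjusted p = 0.00217) and of -0.54 ± 0.15 (adjusted p = 0.0289) without hypoxia 2 and 3. The interaction is the log2 response to low oxygen in chelated cells minus that in unchelated cells. It was -0.69 ± 0.18 on the log2 scale (-1.09 to -0.29, adjusted p = 0.0236). Its call was lost when control 1, control 2, hypoxia 3, TEPA+hypoxia 3 or TEPA 2 was left out (-0.70 to -0.57, adjusted p = 0.0559 to 0.0663), and it was -0.48 ± 0.18 (adjusted p = 0.117) without hypoxia 2 and 3. After the GC and length correction it turned to 0.21 ± 0.18 (adjusted p = 0.393), and TEPA+hypoxia against hypoxia turned to 0.12 ± 0.13 (adjusted p = 0.441), so the direction of both values depends on that correction. TEPA at normal oxygen left ADM at -0.06 ± 0.13 against control (-0.34 to 0.23).

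CALCRL (chr2:187343129-187448460, minus strand) encodes the calcitonin receptor-like receptor, the membrane receptor that adrenomedullin binds. It gave 30, 30 and 28 counts in TEPA+hypoxia, 14, 7 and 9 in hypoxia, 11, 14 and 21 in TEPA, and 38, 30 and 27 in control. In CPM these were 1.75, 1.71 and 1.54 in TEPA+hypoxia, 0.906, 0.514 and 0.802 in hypoxia, 0.431, 0.809 and 1.25 in TEPA, and 1.75, 1.70 and 1.56 in control. Either treatment alone went with lower values than control. With both together, 2 of 3 libraries lay in the range of control and TEPA+hypoxia 3 lay just below it. Hypoxia against control was -1.17 ± 0.35 (adjusted p = 0.0165) and TEPA+hypoxia against hypoxia was 1.16 ± 0.35 (adjusted p = 0.0149). TEPA against control was -1.06 ± 0.33 with no overlap, yet its adjusted p was 1.00, and TEPA+hypoxia against TEPA was 1.05 ± 0.33 (adjusted p = 0.392). TEPA+hypoxia against control was -0.01 ± 0.31 (-0.68 to 0.67).

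The CALCRL interaction was 2.22 ± 0.48 on the log2 scale (1.16 to 3.27, adjusted p = 0.0236), the farthest from 0 of the 6 members, on counts of at most 38 a library. It was 1.96 ± 0.58 (adjusted p = 0.0774) without hypoxia 2 and 3, where hypoxia against control was -0.88 ± 0.49 (adjusted p = 0.296) and TEPA+hypoxia against hypoxia 0.88 ± 0.49 (adjusted p = 0.221). After the GC and length correction the same 3 values were 1.44 (adjusted p = 0.0544), -0.56 (adjusted p = 0.210) and 0.45 (adjusted p = 0.309). CALCRL transcripts hold 33.9% GC, the lowest among the 7 members. The directions held in both fits and the calls did not. Leaving out hypoxia 2 alone ended the calls of hypoxia against control (-0.97, adjusted p = 0.0666) and of TEPA+hypoxia against hypoxia (0.96, adjusted p = 0.0606), and the interaction was lost without control 1, control 2, hypoxia 3, TEPA+hypoxia 3 or TEPA 2 (2.18 to 2.28, adjusted p = 0.0559 to 0.0663).

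RAMP2 (chr17:42758447-42763041, plus strand) encodes the accessory protein that makes CALCRL an adrenomedullin receptor. It had 0 counts in all 12 libraries. That zero was not read as silence, because the table also lists HK1 at 0 and CANX at 4 counts in total, both genes that nearly every cell uses. Of the exonic bases of RAMP2, 35.9% overlap RAMP2-AS1 on the opposite strand, which had 5 counts in total, and the strand setting of the authors' counting is not given in the sources used here.

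APLN (chrX:129645259-129654937, minus strand) encodes apelin, the ligand of the receptor APLNR. It was at 103, 111 and 102 CPM in TEPA+hypoxia, 145, 134 and 151 CPM in hypoxia, 77.5, 79.3 and 71.0 CPM in TEPA, and 91.8, 87.6 and 111 CPM in control. Hypoxia lay above control, and TEPA+hypoxia above TEPA, in every library, while TEPA lay below control. Hypoxia against control was 0.57 ± 0.11 (0.34 to 0.80, adjusted p = 0.00601), a 1.48-fold rise. The chelated cells gave 0.47 ± 0.11 for TEPA+hypoxia against TEPA (0.23 to 0.70, adjusted p = 0.204), which passed the test without hypoxia 1 (adjusted p = 0.0231). This response was also called in an edgeR fit of only the groups compared (0.48, adjusted p = 0.0110).

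The interaction of APLN was not called. The difference between its 2 responses was -0.10 ± 0.15 (-0.43 to 0.23, adjusted p = 0.599), an interval that still allows a loss of 0.43 or a gain of 0.23, and -0.11 (adjusted p = 0.692) without hypoxia 2 and 3. TEPA+hypoxia against hypoxia was -0.45 ± 0.11 (adjusted p = 0.00464), and TEPA against control was -0.35 ± 0.11 (adjusted p = 1.00), so the level was lower with the chelator at both oxygen tensions but only the first passed the test. TEPA+hypoxia against control was 0.12 ± 0.11 (adjusted p = 0.793), with overlapping libraries. Without hypoxia 2 and 3, hypoxia against control was 0.59 (adjusted p = 0.0557), TEPA+hypoxia against TEPA 0.48 (adjusted p = 0.0178) and TEPA+hypoxia against hypoxia -0.46 (adjusted p = 0.0299). The GC and length correction lowered hypoxia against control to 0.29 (adjusted p = 0.0298) and took TEPA+hypoxia against hypoxia to -0.12 (adjusted p = 0.314).

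EDN1 (chr6:12290363-12297194, plus strand) encodes the precursor of endothelin-1. It was at 360.2, 373 and 365 CPM in TEPA+hypoxia, 357, 208.5 and 266 CPM in hypoxia, 357, 351 and 357 CPM in TEPA, and 309, 316 and 358 CPM in control. Hypoxia 2 and 3 were the lowest of all libraries, whereas hypoxia 1 lay within the range of control. Hypoxia against control was -0.24 ± 0.16 (-0.58 to 0.10, adjusted p = 0.197) and turned to 0.12 ± 0.09 (adjusted p = 0.445) without hypoxia 2 and 3. TEPA+hypoxia against hypoxia was called at 0.40 ± 0.16 (adjusted p = 0.0420), and was 0.04 ± 0.09 (adjusted p = 0.784) without those libraries. The call also ended in 10 of 12 fits that left out 1 library, among them hypoxia 2 (0.24, adjusted p = 0.134) and hypoxia 3 (0.38, adjusted p = 0.114). Of these fits it held only without hypoxia 1 or control 3. After the GC and length correction the call held, where 3 members, EDN1 among them, were called higher. Without hypoxia 1, hypoxia against control was called at -0.49 (adjusted p = 2.79e-04). Among the groups without hypoxia libraries, EDN1 differed by 0.16 ± 0.16 for TEPA+hypoxia against control and by 0.05 ± 0.15 for TEPA+hypoxia against TEPA, neither past the test.

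ECE1 (chr1:21217247-21345572, minus strand) encodes the endothelin-converting enzyme. It was at 1309, 1332 and 1336 CPM in TEPA+hypoxia, 1184, 1279 and 1289 CPM in hypoxia, 1393, 1364 and 1315 CPM in TEPA, and 1195, 1226 and 1196 CPM in control. Both groups given TEPA lay above control in all libraries. None of its contrasts passed edgeR's test (TEPA against control 0.17 ± 0.08, 0.00 to 0.34, adjusted p = 1.00, unadjusted p = 0.0479; hypoxia against control 0.05 ± 0.08, -0.12 to 0.22). DESeq2 and limma-voom called none either. In the fit without hypoxia 2 and 3, hypoxia against control was -0.03 (adjusted p = 0.856) and TEPA+hypoxia against hypoxia 0.17 (adjusted p = 0.121). ECE1 had the narrowest range of the 6 members, and a hypoxia effect beyond 0.22 on the log2 scale lies outside its interval. After the GC and length correction TEPA+hypoxia against hypoxia was called at 0.19 ± 0.06 (adjusted p = 0.0163).

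NOS3 (chr7:150990995-151014588, plus strand) encodes the endothelial nitric oxide synthase, which makes nitric oxide from arginine. It was at 523, 489 and 501 CPM in TEPA+hypoxia, 463, 455 and 486 CPM in hypoxia, 479, 459 and 429 CPM in TEPA, and 369, 377 and 367 CPM in control. In TMM-scaled CPM control was the lowest group, with all 9 treated libraries above all 3 control libraries. For hypoxia 2 this rests on its scaling factor of 0.772. That library gave 6198 counts of 17648057 in total, a lower share than the 6641 of 16998936 in control 2. Hypoxia against control was 0.34 ± 0.08 (0.16 to 0.51, adjusted p = 0.00691), TEPA+hypoxia against control 0.44 ± 0.08 (0.27 to 0.62, adjusted p = 0.0501) and TEPA against control 0.30 ± 0.08 (0.12 to 0.47, adjusted p = 1.00).

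The NOS3 values against control passed the test in some fits only. DESeq2 called TEPA+hypoxia against control (0.43, adjusted p = 6.07e-08) and TEPA against control (0.29, adjusted p = 0.0267). Without hypoxia 2 and 3, TEPA+hypoxia against control was called at 0.45 (adjusted p = 0.00123), while hypoxia against control was 0.32 (adjusted p = 0.0868). With all 12 libraries but no filter on low counts, hypoxia against control was 0.28 (adjusted p = 0.0628), not past the test. TEPA+hypoxia against control was also called without hypoxia 1 (0.44, adjusted p = 0.00181) or hypoxia 2 (0.44, adjusted p = 0.0356). TEPA+hypoxia against TEPA was 0.15 ± 0.08 (adjusted p = 0.735), TEPA+hypoxia against hypoxia 0.11 ± 0.08 (adjusted p = 0.255) and the interaction -0.19 ± 0.11 (adjusted p = 0.181). In the fit that leaves out hypoxia 2 and 3, TEPA+hypoxia against hypoxia was 0.13 (adjusted p = 0.314) and the interaction of NOS3 -0.16 (adjusted p = 0.345). After the GC and length correction hypoxia against control was 0.00 ± 0.09 (adjusted p = 0.975), with TEPA+hypoxia against control still 0.45 ± 0.09 (adjusted p = 0.0464) and TEPA+hypoxia against hypoxia called at 0.45 ± 0.09 (adjusted p = 0.00386). NOS3 transcripts hold 62.6% GC, the highest among the members. The 3′ part of NOS3 overlaps ATG9B on the opposite strand over 13.2% of its exonic bases, and ATG9B itself had too few counts to be tested.

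**Figure D2:**
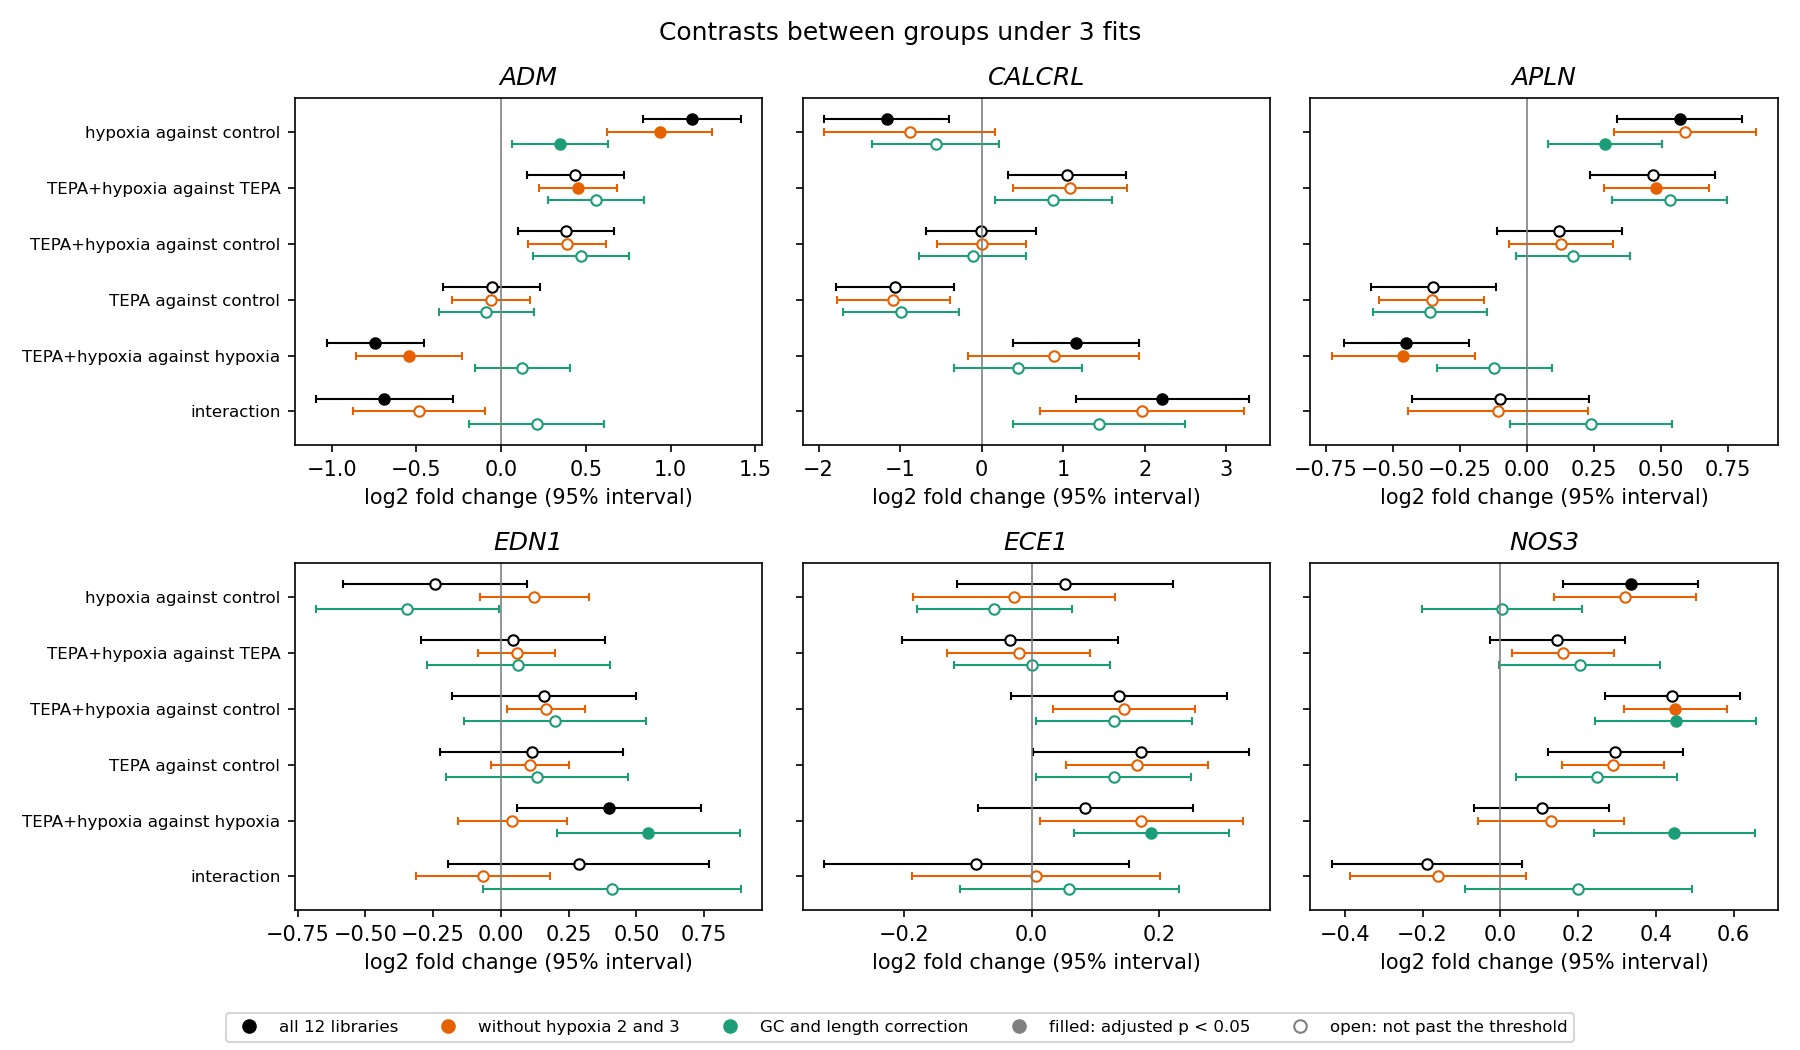
Each panel shows 1 gene, with the log2 fold change on the x axis and its 95% interval for the 6 contrasts, from the fit with all 12 libraries, without hypoxia 2 and 3, and with the GC and length correction; filled points passed the adjusted threshold. ADM in hypoxia against control stays above 0 in all 3 fits, whereas the ADM interaction moves from -0.69 to 0.21 under the correction and NOS3 in hypoxia from 0.34 to 0.00.

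The other comparisons set the members against small backgrounds. In TEPA+hypoxia against TEPA, 0 of the 6 members were called by edgeR, beside 0.0969% of all genes (0.0623% higher and 0.0346% lower); 3 members had an unadjusted p under 0.05, DESeq2 called 1 (APLN) and limma-voom 0. Yet ADM, APLN, EDN1, NOS3 and CALCRL were all higher with no overlap between libraries, as were 12.5% of all genes. The fit without hypoxia 2 and 3 called ADM and APLN in this comparison, beside 2.17% of all genes. In TEPA+hypoxia against control, 0 members were called by edgeR beside 0.263% of all genes (0.145% higher and 0.118% lower), 2 had an unadjusted p under 0.05, DESeq2 called NOS3 and limma-voom 0. There ADM, EDN1, ECE1 and NOS3 were higher without overlap, as were 13.0% of all genes, and the fit without hypoxia 2 and 3 called NOS3, beside 5.02% of all genes. In TEPA against control edgeR called 0 members and 0.0% of all genes; 4 members and 289 genes had an unadjusted p under 0.05, DESeq2 called NOS3 alone among the members, and limma-voom 0. ECE1 and NOS3 were higher without overlap, as were 6.64% of all genes, and APLN and CALCRL lower, as were 6.92%. The fit without hypoxia 2 and 3 called 0 members there, beside 0.0263% of all genes.

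TEPA+hypoxia against hypoxia shares its hypoxia libraries with hypoxia against control, so the values of the 2 comparisons are not independent. EDN1 and CALCRL were called higher and ADM and APLN lower, beside 61.5% of all genes (30.9% higher and 30.6% lower), a share near that of the members. Without overlap, EDN1, ECE1, NOS3 and CALCRL were higher, as were 32.2% of all genes, and ADM and APLN lower, as were 30.5%. When hypoxia 2 and 3 were left out, ADM and APLN were still called lower and 0 members higher, beside 15.2% of all genes. The interaction was called in 2 of 6 members, higher in CALCRL and lower in ADM, beside 38.8% of all genes (17.3% higher and 21.5% lower). With both left out, edgeR called the interaction in 0 members and 0.0% of all genes, and 4117 genes had an unadjusted p under 0.05.

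The surrounding pathways were described with 6 lists of 74 further genes, of which 37 were tested. In hypoxia against control 11 were called higher and 13 lower, beside 29.4% and 27.8% of all genes, so that 24 of 37 is near the background of 57.2%, with a median log2 fold change of -0.01, beside -0.01 over all genes tested; none was called in that contrast without hypoxia 2 and 3. In edgeR 0 of the 37 were called in TEPA+hypoxia against TEPA, in TEPA+hypoxia against control or in TEPA against control, where 2, 1 and 1 had an unadjusted p under 0.05 and DESeq2 and limma-voom called 0. In TEPA+hypoxia against hypoxia 11 were called higher and 14 lower, near the background of 61.5% of all genes. The counts of called pathway genes thus depended on whether hypoxia 2 and 3 were included.

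For adrenomedullin, 3 of 9 listed genes were tested and all 3 were called lower in hypoxia, with a median of -0.64, beside 27.8% of all genes called lower. The GC and length correction left 2 of these calls. PAM, the copper-dependent enzyme that amidates adrenomedullin into its active form, gave 1541, 1575 and 2023 counts in TEPA+hypoxia, 915, 53 and 127 in hypoxia, 2140, 1409 and 1457 in TEPA, and 1944, 1618 and 1396 in control. Hypoxia 2 and 3 were far below every other library, and hypoxia 1 also lay below the rest. PAM was -1.80 in hypoxia against control (adjusted p = 0.0331), a value that without hypoxia 2 and 3 was -0.56 (adjusted p = 0.0638). TEPA+hypoxia against hypoxia was 1.96 (adjusted p = 0.0219) and still 0.72 (adjusted p = 0.0178) without them, and with TEPA the response to hypoxia was 0.21 (adjusted p = 0.949). The difference between the responses of PAM, its interaction, was 2.01 ± 0.89 and did not pass the test (adjusted p = 0.0863, and 0.0643 without hypoxia 2 and 3). MME, the peptidase neprilysin, was -0.64 in hypoxia against control, -0.19 without hypoxia 2 and 3, and turned to 0.03 (adjusted p = 0.674) after the GC and length correction. CRCP, a receptor component protein for peptides of this family, was -0.37, and -0.20 without those libraries. RAMP3 and ACKR3 (a scavenger receptor of the peptide) had 0 counts and RAMP1 at most 1 per library. As for RAMP2, these values were not read as silence.

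In the apelin system, 3 of 6 listed genes were tested and 2 were called lower in hypoxia, beside 27.8% of all genes. FURIN, a convertase of proprotein precursors, was -0.30 (adjusted p = 0.0355), and the related PCSK5 -1.68 (adjusted p = 0.0118) on at most 24 counts a library. They were -0.17 and -1.88 without hypoxia 2 and 3, neither past the test. After the GC and length correction FURIN was called lower (-0.59, adjusted p = 0.00785) and PCSK5 was not called (-1.18, adjusted p = 0.0808). The apelin receptor gene APLNR was at 0 counts throughout, which, as for RAMP2, was not read as silence. In the endothelin system, ECE2, a relative of ECE1, was called higher (0.79, adjusted p = 0.0182) and the receptor gene EDNRB lower (-0.83, adjusted p = 0.0184). These were the 2 tested of 5 listed genes, beside 57.2% of all genes called in hypoxia against control. ECE2 was at 13.5, 32.0 and 22.8 CPM in hypoxia, against 12.2, 12.5 and 14.6 CPM in control, and only hypoxia 2 and 3 exceeded control. EDNRB was at 5.05, 3.45 and 2.58 CPM in hypoxia, against 6.999, 8.23 and 4.75 CPM in control, and the groups overlapped. ECE2 was 0.04 and EDNRB -0.40 without hypoxia 2 and 3. With the GC and length correction they were 0.36 and -0.27, and neither passed the test in these fits. EDNRA had 0 counts, likewise not read as silence.

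Around nitric oxide production 20 of 24 listed genes were tested, 9 called higher and 4 lower in hypoxia, near the background of 57.2% of all genes. The median was 0.13, and -0.08 after the GC and length correction. NOSIP, whose protein binds the synthase and lowers its activity, was at 70.7, 238 and 169 CPM in hypoxia, against 56.7, 52.0 and 68.3 CPM in control. Its 1.43 (adjusted p = 0.00634) shrank to 0.26 (adjusted p = 0.370) without hypoxia 2 and 3. KLF2, a transcription factor known to raise NOS3, was at 291, 470.3 and 452 CPM in hypoxia, against 226, 214 and 254 CPM in control. All hypoxia libraries of KLF2 were above control, at 0.81 (adjusted p = 0.00601), yet the value was 0.33 (adjusted p = 0.143) without hypoxia 2 and 3 and -0.20 after the GC and length correction. CAV1, the caveolar protein that holds the synthase inactive, was 0.32 lower on the log2 scale (adjusted p = 0.0199), and CALM3, a calmodulin gene, was at 0.40 (adjusted p = 0.00855). CAV1 was at -0.11 and CALM3 at 0.16 without hypoxia 2 and 3, and neither passed the test. Corrected for GC content and length, CAV1 was at -0.14 (adjusted p = 0.0918) and CALM3 turned to -0.08 (adjusted p = 0.348). HSP90AA1 and CALM2, a chaperone and a calmodulin that the synthase needs, were at -0.17 and 0.15 in hypoxia against control and did not pass the test. In TEPA+hypoxia against hypoxia HSP90AA1 was called at 0.46 (adjusted p = 0.0138) and CALM2 at -0.33 (adjusted p = 0.0211), and the interaction of HSP90AA1 was called at 0.53 (adjusted p = 0.0499). These 3 values were 0.15, -0.25 and 0.23 without hypoxia 2 and 3, none past the test. After the correction CALM2 was called in hypoxia against control (0.80, adjusted p = 0.00866) and still in TEPA+hypoxia against hypoxia (-1.05, adjusted p = 0.00254). HSP90AA1 was then at 0.18 (adjusted p = 0.0658) in TEPA+hypoxia against hypoxia. Its interaction was 0.22 (adjusted p = 0.141), and neither value passed the test.

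Downstream of nitric oxide 3 of 9 listed genes were tested. In hypoxia against control 1 was called higher and 1 lower, beside 29.4% and 27.8% of all genes. CYB5R3, a reductase of the globin that scavenges nitric oxide, was called higher in hypoxia (0.39, adjusted p = 0.00675), and PDE5A, which breaks down cyclic GMP, lower (-0.79, adjusted p = 0.0321). Among 6 tested of 21 other vasoactive mediators, 0 were called higher and 2 lower in hypoxia, beside 27.8% of all genes called lower. PTGS2, the inducible cyclooxygenase, was -0.99 (adjusted p = 0.0315) and NPR2, the receptor of C-type natriuretic peptide, -1.29 (adjusted p = 0.00601). TBXAS1, the thromboxane synthase, was not called in hypoxia against control (0.42, adjusted p = 0.228). None of these 5 genes passed the test in hypoxia against control without hypoxia 2 and 3, at 0.24 for CYB5R3, -0.20 for PDE5A, -1.04 for PTGS2, -0.66 for NPR2 and 0.03 for TBXAS1. CYB5R3 (0.07), PDE5A (-0.06) and PTGS2 (-0.40) did not pass it after the GC and length correction either. NPR2 was still called lower after that correction (-1.38, adjusted p = 0.00649).

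**Figure D3:**
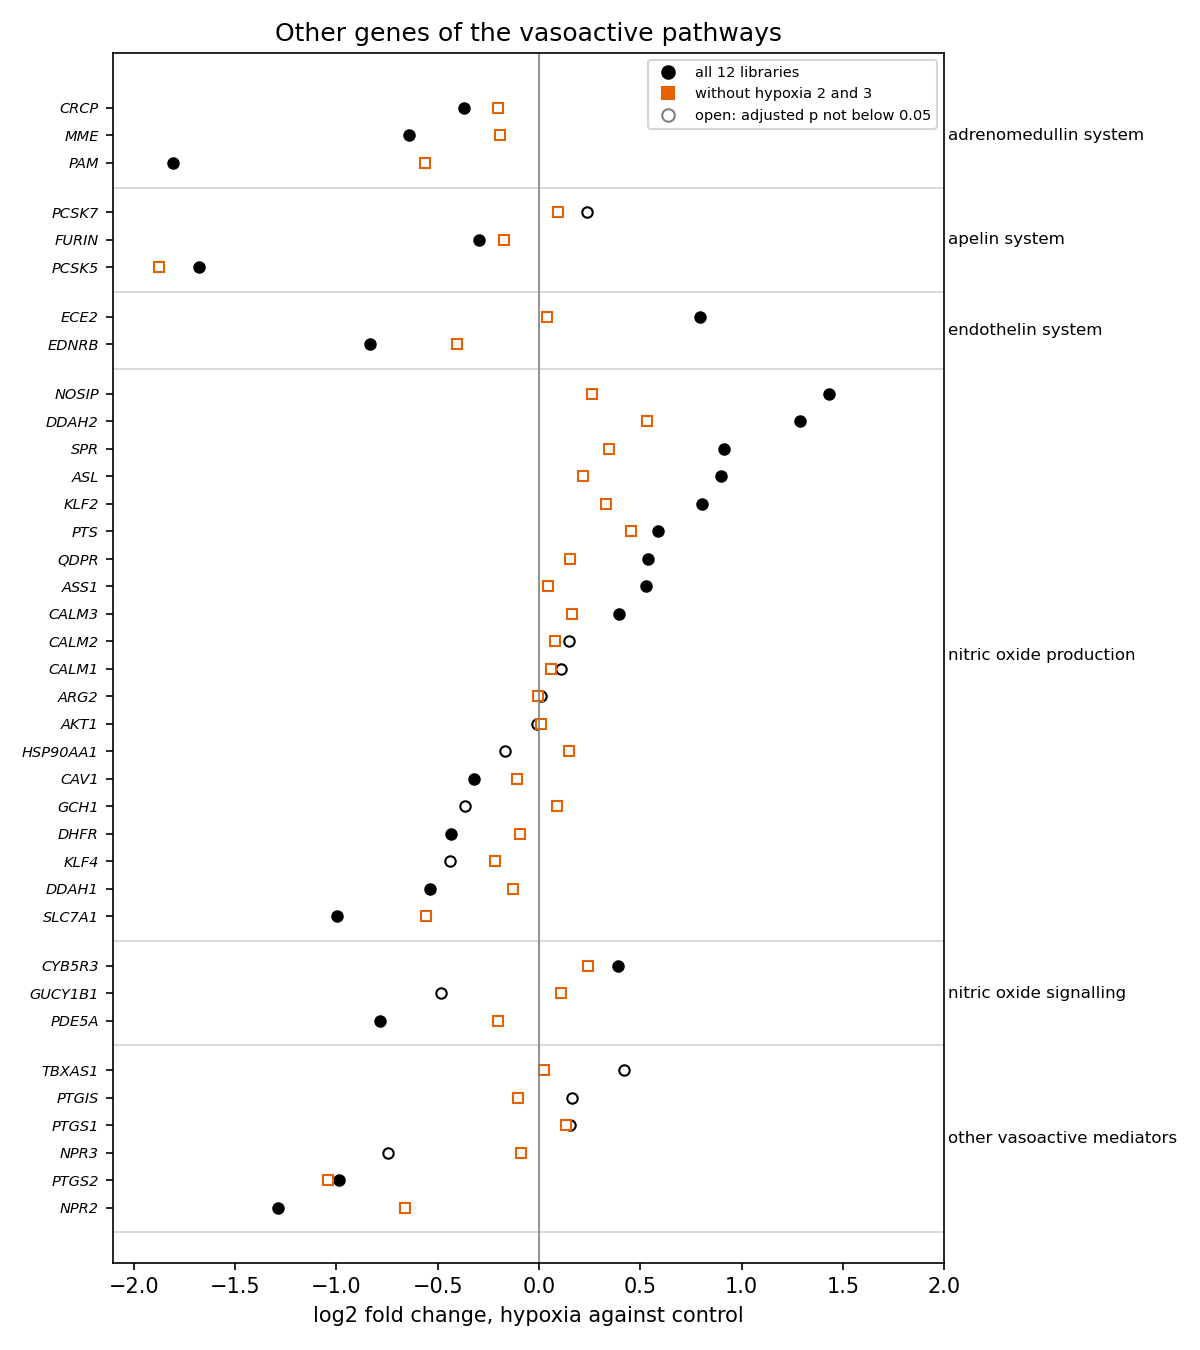
The x axis is the log2 fold change of hypoxia against control for the 37 tested genes of the 6 pathway lists, with circles for all 12 libraries and squares for the fit without hypoxia 2 and 3; filled symbols passed the adjusted threshold. All squares are open, and NOSIP moves from 1.43 to 0.26 and PAM from -1.80 to -0.56.

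The genes with the most alike profiles over the 12 libraries were found among 10121 genes as those with the smallest root mean square difference of centred log2(CPM + 0.5) values; all profiles share the same libraries and the measure is a description. ADM, whose own profile deviates by 0.485 from its mean, was nearest to HSPA1A (0.153), GADD45B (0.157) and LINC01116 (0.159). APLN was nearest to HSPA5 (0.128), BNIP3 (0.142) and BCAR1 (0.149), at an own deviation of 0.340. EDN1 was nearest to LOXL2 (0.0512), ERGIC1 (0.0685) and TIFA (0.0718), at 0.237. Over the 10 libraries without hypoxia 2 and 3, LOXL2 ranked 9, ERGIC1 95 and TIFA 40 among the neighbours of EDN1, and HSPA5 ranked 4, BNIP3 11 and BCAR1 3 among those of APLN. ECE1 was nearest to SH3BP2 (0.0420), GOSR2 (0.0456) and COG1 (0.0533), at an own deviation of 0.0757. NOS3 was nearest to PSPH (0.0704), PPP1R13L (0.0955) and CCDC85C (0.0966), at 0.169. CALCRL was nearest to ZNF670 (0.230), CCNE2 (0.2496) and CNKSR3 (0.255), at 0.448. Without hypoxia 2 and 3, SH3BP2 remained the nearest gene to ECE1, ZNF670 the nearest to CALCRL, and PPP1R13L became the nearest to NOS3.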

How the data were processed

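RNA was sequenced in 12 libraries of EA.Hy926 cells. The authors deposited raw counts per gene symbol, made from reads aligned with HISAT2 2.1.0 to GRCh38, with DESeq also named, per the submitters' processing notes; which counter, annotation and strandedness were used is not given in the sources used here. Columns were mapped to groups by their labels. In R 4.3.3, edgeR 4.0.16 (limma 3.58.1) filtered genes with filterByExpr, scaled by TMM and fitted 1 mean per group over all 12 libraries; 14447 genes with 99.9% of counts were tested by the quasi-likelihood F-test (two-sided, Benjamini-Hochberg, threshold 0.05). SE is the log2 fold change over the square root of F. The fit was tested on simulated data. Floors of 3 counts cover counting error only. Coordinates and lengths are from GENCODE 29 and GC from its transcripts (12587 tested genes, 87.1%). Alternatives were RLE and upper quartile scaling, no filter, 1 CPM in 3 libraries, DESeq2 1.42.0, limma-voom, a replicate block, only the groups compared, leaving out libraries, and splines (4 df) of GC content and length. Named genes are the members, up to 6 called genes per list by mean CPM plus PAM, APLNR, ACKR3, CAV1, EDNRA and EDNRB, and the 3 most alike profiles per member. 1 listed gene is not reported here and was left out of the list counts. The members, lists and alternatives were chosen with earlier results of these data known.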

Additional observations from a re-analysis of the deposited data

Results flagged for a closer look

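The response to hypoxia differed between cells with and without TEPA in 2 of 6 members by the interaction test of edgeR. Over all genes, 38.8% were called in the same test, a share near that of the members. The ADM interaction was -0.69 on the log2 scale, from a response of 0.44 with TEPA and of 1.13 without it. The CALCRL interaction was 2.22, from a response of 1.05 with TEPA and of -1.17 without it, on 7 to 38 counts a library. Both calls ended when control 1, control 2, hypoxia 3, TEPA+hypoxia 3 or TEPA 2 was left out, where the values ran from -0.70 to -0.57 for ADM and from 2.18 to 2.28 for CALCRL, and no gene of the table was called. After the GC and length correction neither interaction was called, and that of ADM turned to 0.21. Groups of 3 libraries are too small for the check for single outlying samples.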

How the results depend on the processing

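The cause of the changes below was not tested, apart from the fewer libraries some fits hold. CALCRL had few counts, 7 to 38 a library, and the effect of depth on its calls was not tested. Neither RLE nor upper quartile scaling changed the direction of a called member value.

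Without hypoxia 2 and 3, hypoxia against control called 1 member higher and 0 lower, TEPA+hypoxia against TEPA 2 higher, TEPA+hypoxia against control 1 higher, TEPA+hypoxia against hypoxia 0 higher, and the interaction 0 and 0. Every pathway list fell to 0 calls in hypoxia against control, and over all lists the counts were 1 higher in TEPA+hypoxia against TEPA, 1 higher and 1 lower in TEPA+hypoxia against control, 2 higher and 3 lower in TEPA+hypoxia against hypoxia, and 0 and 0 in the interaction. With only the groups compared, 0 members and 0 genes of any list were called in hypoxia against control (smallest adjusted p = 0.0582). Members called higher then numbered 2 in TEPA+hypoxia against TEPA, 1 in TEPA+hypoxia against control and 1 in TEPA+hypoxia against hypoxia, and over all lists the counts were 1 higher in TEPA+hypoxia against TEPA, and 5 higher and 9 lower in TEPA+hypoxia against hypoxia.

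With the GC and length correction, hypoxia against control called 2 members higher and 0 lower, and TEPA+hypoxia against control 1 higher. TEPA+hypoxia against hypoxia called 3 higher and 0 lower, and the interaction 0 and 0. In hypoxia against control the lists then had 2 lower (adrenomedullin), 1 higher and 1 lower (apelin), and 0 and 0 (endothelin). They had 5 higher and 3 lower (nitric oxide production), 0 and 0 (nitric oxide signalling), and 1 higher and 1 lower (other mediators). Over all lists this was 7 and 7. In TEPA+hypoxia against hypoxia 8 were higher and 9 lower over all lists, and in the interaction 2 higher and 4 lower. That correction turned the sign of ADM in TEPA+hypoxia against hypoxia (0.12) and in the interaction (0.21), and in hypoxia against control of MME (0.0324), CALM3 (-0.0835) and KLF2 (-0.20). It also turned 3 called list genes picked out here after their values were seen, SPR (-0.11), QDPR (-0.10) and ASS1 (-0.22, adjusted p = 0.0340). With the replicate block beside it, hypoxia against control called 1 member higher and 0 lower. TEPA+hypoxia against hypoxia called 3 higher and 0 lower, and the interaction 0 and 0. The lists had 2 lower (adrenomedullin), 1 higher and 1 lower (apelin), 0 and 0 (endothelin), 5 higher (nitric oxide production), 0 and 0 (nitric oxide signalling), 1 lower (other mediators), and 6 higher and 7 lower over all lists; TEPA+hypoxia against hypoxia had 7 higher and 9 lower, and the interaction 0 and 0. The turned values were 0.14 and 0.22 for ADM, 0.0326 for MME, -0.0833 for CALM3, -0.20 for KLF2 and -0.00222 for NOS3 in hypoxia against control.

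DESeq2 called 1 member higher in TEPA+hypoxia against TEPA, 1 in TEPA+hypoxia against control and 1 in TEPA against control. Upper quartile scaling and the filter of 1 CPM in 3 libraries called 1 member higher in TEPA+hypoxia against control; that filter left 1 lower call in the apelin list, and no filter left 7 lower calls of the interaction over all lists. No pairing by replicate number was seen, and whether same-numbered libraries shared a batch was not tested. The deviations of same-numbered libraries correlated at -0.451 to 0.429 (median -0.07), and those of other numbers at -0.539 to 0.561. Of 12 libraries, 3 matched their own number best. The replicate block left 1 lower call in the apelin list and 3924 higher and 3770 lower calls over all genes in hypoxia against control, against 4254 and 4016 without it, and changed no call of a member.

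Over all genes, TEPA+hypoxia against TEPA called 9 higher and 5 lower, against 92 and 53 in DESeq2, 205 and 150 with only the groups compared, 201 and 128 without hypoxia 2 and 3, and 22 and 5 with the GC correction. TEPA+hypoxia against control called 21 and 17, against 147 and 156 in DESeq2, 166 and 85 with only the groups compared, 418 and 345 without hypoxia 2 and 3, 88 and 63 with the GC correction, and 10 and 8 with the block. TEPA against control called 0, against 1 higher and 5 lower in DESeq2, 2 and 5 with only the groups compared, 0 and 4 without hypoxia 2 and 3, and 1 and 4 without hypoxia 1. Leaving out 1 library at a time, TEPA+hypoxia against TEPA ran from 0 and 0 (without TEPA 2) to 153 and 101 (without hypoxia 1), and TEPA+hypoxia against control from 2 and 1 (without control 1) to 334 and 332 (without hypoxia 1). Hypoxia against control fell to 3049 and 2347 without control 2, 2853 and 2462 without hypoxia 2 and 3011 and 2103 without hypoxia 3. The interaction was 0 without control 1, control 2, hypoxia 3, TEPA+hypoxia 3 or TEPA 2, 833 to 1450 higher and 1430 to 2262 lower without hypoxia 2, TEPA+hypoxia 2, TEPA 1 or TEPA 3, and 5261 and 4497 without hypoxia 1. Without hypoxia 2 and 3, hypoxia against control called 43 and 35, TEPA+hypoxia against hypoxia 1213 and 1090 against 4467 and 4420, and the interaction 0 against 2498 and 3113. With only the groups compared, TEPA+hypoxia against hypoxia called 2204 higher and 2995 lower. The interaction called 886 and 1615 with the GC correction and 0 with the block beside it.

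Leaving out 1 library at a time, member counts ran from 0 to 2 lower in hypoxia against control, 0 to 2 higher in TEPA+hypoxia against TEPA, 0 to 1 higher in TEPA+hypoxia against control, 0 to 2 higher in TEPA+hypoxia against hypoxia, and 0 to 2 higher and 0 to 1 lower in the interaction. In hypoxia against control the lists ran from 1 to 3 lower (adrenomedullin), 0 to 1 higher and 1 to 2 lower (apelin), 0 to 1 each way (endothelin), 1 to 7 lower (nitric oxide production), 0 to 1 lower (nitric oxide signalling), 0 to 1 higher and 1 to 3 lower (other mediators) and 5 to 17 lower over all lists. Over all lists they were 0 to 1 higher in TEPA+hypoxia against TEPA and against control, 5 to 16 higher and 9 to 14 lower in TEPA+hypoxia against hypoxia, and 0 to 15 higher and 0 to 12 lower in the interaction.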
